A study of Mus musculus with 20 samples.

Results

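The circadian clock genes examined here were Arntl (also called Bmal1), Clock, Npas2, Per1, Per2, Per3, Cry1, Nr1d1, Nr1d2 and Dbp, 10 of the 43346 genes in the count table, taken by their gene names. They were followed over 20 breast tumors, 1 from each of 20 female F1 mice whose fathers were BALB/c carriers of the neuT transgene, an activated rat Her2/neu oncogene, and whose mothers were FVB/J. The sample names put 9 tumors under Lo and 11 under Hi, words whose meaning is not given in the sources used here. All 20 tumors shared the transgene and the F1 background, none was treated, and no normal mammary tissue entered the comparison. Each mouse bore several tumors and was killed when 1 of them reached the size limit. RNA came from a small frozen piece of a single tumor, so the values are of bulk tissue, and a change in the number of cells of a type cannot be told apart from a change of RNA per cell. The hour of killing is not given in the sources used here, and its part in any relation below was not tested.

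The clock is a feedback loop of transcription that runs in most cells of the body. Arntl pairs with Clock or Npas2 to activate genes that carry an E-box, among them the Per, Cry, Nr1d and Dbp genes. Per and Cry proteins return to block that pair, while the Nr1d receptors (Rev-erb alpha and beta) repress Arntl itself. Dbp, Tef and Hlf are transcription factors that carry the rhythm to genes with a D-box. In tissues sampled around the day, Arntl peaks at nearly the opposite time to Dbp and the Nr1d genes, and Cry1 later than the Per genes. The comparison therefore asked whether tumors high in Arntl were low in the Per, Nr1d and Dbp genes.

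Promoter sequence shows where the loop's own elements lie in these genes. Windows running from 250 bases before to 50 bases after a RefSeq transcription start (GRCm38.p6, the assembly called mm10) were found for 9 of the 10 genes, in 13 windows, and for Tef and Ciart. They were searched on both strands for the E-box CACGTG bound by Arntl with Clock, the D-box TTANGTAA bound by Dbp and Tef, the RORE cores TAGGTCA and TGGGTCA bound by Nr1d and Ror receptors, and the CRE element TGACGTCA, which answers cyclic AMP. Of 4 clock genes with a match, Per1 had an E-box 166 bases and Cry1 an E-box 60 bases before the start, Per3 had a pair of D-boxes beginning 205 and 158 bases before it, and Arntl had a RORE core beginning at base 31 of the transcript. The Tef windows each held an E-box and the Ciart window held 3. Among all 32851 windows in the table, 7.15% held the E-box, 2.32% the D-box, 2.61% and 3.98% the RORE cores and 1.79% the CRE. The 250 bases before the start are shown for Per1, Cry1, Tef and Per3, and 30 bases around the Arntl match, each read 5′ to 3′ on the gene's own strand, with the matched letters in capitals, so that the elements named in the loop can be seen in place. For Tef the window of the downstream start is given.
Per1, chr11:69098699-69098948, plus strand: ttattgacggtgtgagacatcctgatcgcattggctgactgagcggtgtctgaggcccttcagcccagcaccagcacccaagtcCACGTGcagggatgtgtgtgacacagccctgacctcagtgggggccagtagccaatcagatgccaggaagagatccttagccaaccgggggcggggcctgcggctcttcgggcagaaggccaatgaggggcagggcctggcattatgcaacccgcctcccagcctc
Cry1, chr10:85185055-85185304, minus strand: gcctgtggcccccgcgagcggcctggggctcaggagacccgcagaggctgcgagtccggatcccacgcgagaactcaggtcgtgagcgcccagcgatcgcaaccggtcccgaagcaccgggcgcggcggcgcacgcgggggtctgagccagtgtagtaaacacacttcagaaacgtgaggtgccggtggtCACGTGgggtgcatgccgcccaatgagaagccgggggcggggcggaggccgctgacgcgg
Tef, chr15:81811164-81811413, plus strand: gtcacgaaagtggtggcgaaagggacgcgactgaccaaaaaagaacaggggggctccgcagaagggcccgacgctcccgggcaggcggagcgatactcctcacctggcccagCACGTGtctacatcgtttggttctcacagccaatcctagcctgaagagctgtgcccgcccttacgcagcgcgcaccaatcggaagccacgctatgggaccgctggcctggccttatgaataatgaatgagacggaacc
Per3, chr4:151044666-151044915, minus strand: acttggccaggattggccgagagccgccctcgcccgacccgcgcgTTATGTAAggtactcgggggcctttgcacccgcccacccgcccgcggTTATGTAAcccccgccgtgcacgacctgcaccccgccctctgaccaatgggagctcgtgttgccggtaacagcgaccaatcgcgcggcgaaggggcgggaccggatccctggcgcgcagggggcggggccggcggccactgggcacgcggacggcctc
Arntl, chr7:113207530-113207559, plus strand: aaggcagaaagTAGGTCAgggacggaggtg

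A match is a description of letters. The absence of one from the windows of Clock, Npas2, Nr1d1, Nr1d2 and Dbp says only that these letters are not in them.

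Depth was ample for all of the clock genes but Npas2. The tumors had 38765682 to 65465755 counts over genes. The ribosomal RNA locus took 6.29% to 27.7% of them (median 14.7%), and all 10 genes were among the 18883 that passed the filter on low counts. Across the pieces the summed level of 7 epithelial markers was 2690 to 4293 CPM (counts scaled to a common library total), that of 6 T cell markers was 2.07 to 5.98 CPM, that of 8 adipocyte markers was 8.99 to 80.0 CPM, and that of 6 skeletal muscle markers was 1.27 to 859.7 CPM. Epithelial markers were thus high in every piece, as the breast tumor label would have it, and the muscle and adipocyte sums differed widely. Other cells were present too, with sums of 620.4 to 2305 CPM for fibroblast markers, 288.4 to 677.3 CPM for leukocyte markers and 208.9 to 353.0 CPM for macrophage markers.

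Levels were compared between genes as RPKM (counts divided by listed exon length and by the library total; mean ± SD, n = 20). The Nr1d receptors and Dbp, a target gene of the loop, were the most abundant, at 22.5 ± 3.07 RPKM for Nr1d2, 17.6 ± 5.04 RPKM for Dbp and 13.5 ± 3.60 RPKM for Nr1d1. Per1 followed at 9.07 ± 3.01 RPKM and Clock at 8.61 ± 1.09 RPKM. Below them lay Per3 at 4.64 ± 1.33 RPKM, Arntl at 4.63 ± 0.846 RPKM, Per2 at 4.29 ± 0.983 RPKM and Cry1 at 3.88 ± 0.989 RPKM. Npas2, the paralog of Clock that is best known from brain, was lowest at 0.403 ± 0.136 RPKM, with 46 to 199 counts a tumor. Counting error alone thus reached 14.7% in Hi 9, which had the fewest Npas2 counts but the largest total. It was at most 5.31% for the other 9 genes. Several neighbors in this order did not differ beyond their spread. Per1 exceeded Clock in 12 of 20 tumors, Per3 exceeded Arntl in 9, Arntl exceeded Per2 in 12 and Per2 exceeded Cry1 in 11, while Clock was above Per3, and Cry1 above Npas2, in all 20.

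On mm10 the genes lie on chromosome 7 (Arntl, 113207465 to 113314122, and Dbp, 45705088 to 45710155), chromosome 11 (Nr1d1, 98767932 to 98775333, and Per1), chromosome 1 (Npas2 and Per2), and chromosomes 4 (Per3), 5 (Clock), 10 (Cry1) and 14 (Nr1d2). How far each gene moved between tumors was read from CPM scaled by TMM (edgeR's trimmed mean scaling). In the loop's activating pair, Clock ran from 49.9 CPM in Lo 1 through a median of 65.9 to 84.4 CPM in Lo 3, and Arntl from 9.06 CPM in Hi 9 through 13.8 to 17.6 CPM in Hi 3. These were narrow ranges of 1.69-fold and 1.95-fold. Npas2 ranged from 0.653 CPM in Hi 9 through 1.95 to 2.997 CPM in Hi 4, a span of 4.59-fold at its low counts. Of the repressors, Per1 ranged from 33.2 CPM in Hi 3 through 48.9 to 99.6 CPM in Lo 8, a 2.996-fold span. Per2 ranged from 17.1 CPM in Hi 7 through 24.3 to 35.1 CPM in Lo 7, and Per3 from 30.6 CPM in Hi 7 through 41.9 to 69.1 CPM in Lo 7. The same tumor was thus lowest, and another highest, for both Per2 and Per3. Cry1 ranged from 8.35 CPM in Hi 9 through 11.3 to 16.1 CPM in Hi 7. In the Nr1d arm, Nr1d1 ranged from 20.4 CPM in Hi 3 through 44.6 to 56.5 CPM in Hi 10, and Nr1d2 from 81.6 CPM in Hi 1 through 116.7 to 141.0 CPM in Lo 3. Dbp ranged from 22.01 CPM in Hi 3 through 54.9 to 79.6 CPM in Hi 9, a 3.62-fold span. On the log2 scale the SD over tumors was 0.53 for Npas2, 0.47 for Dbp, 0.44 for Nr1d1 and 0.41 for Per1, against a median of 0.25 over all 18883 genes tested, and it was 0.20 for Clock and 0.23 for Nr1d2.

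**Figure D1:**
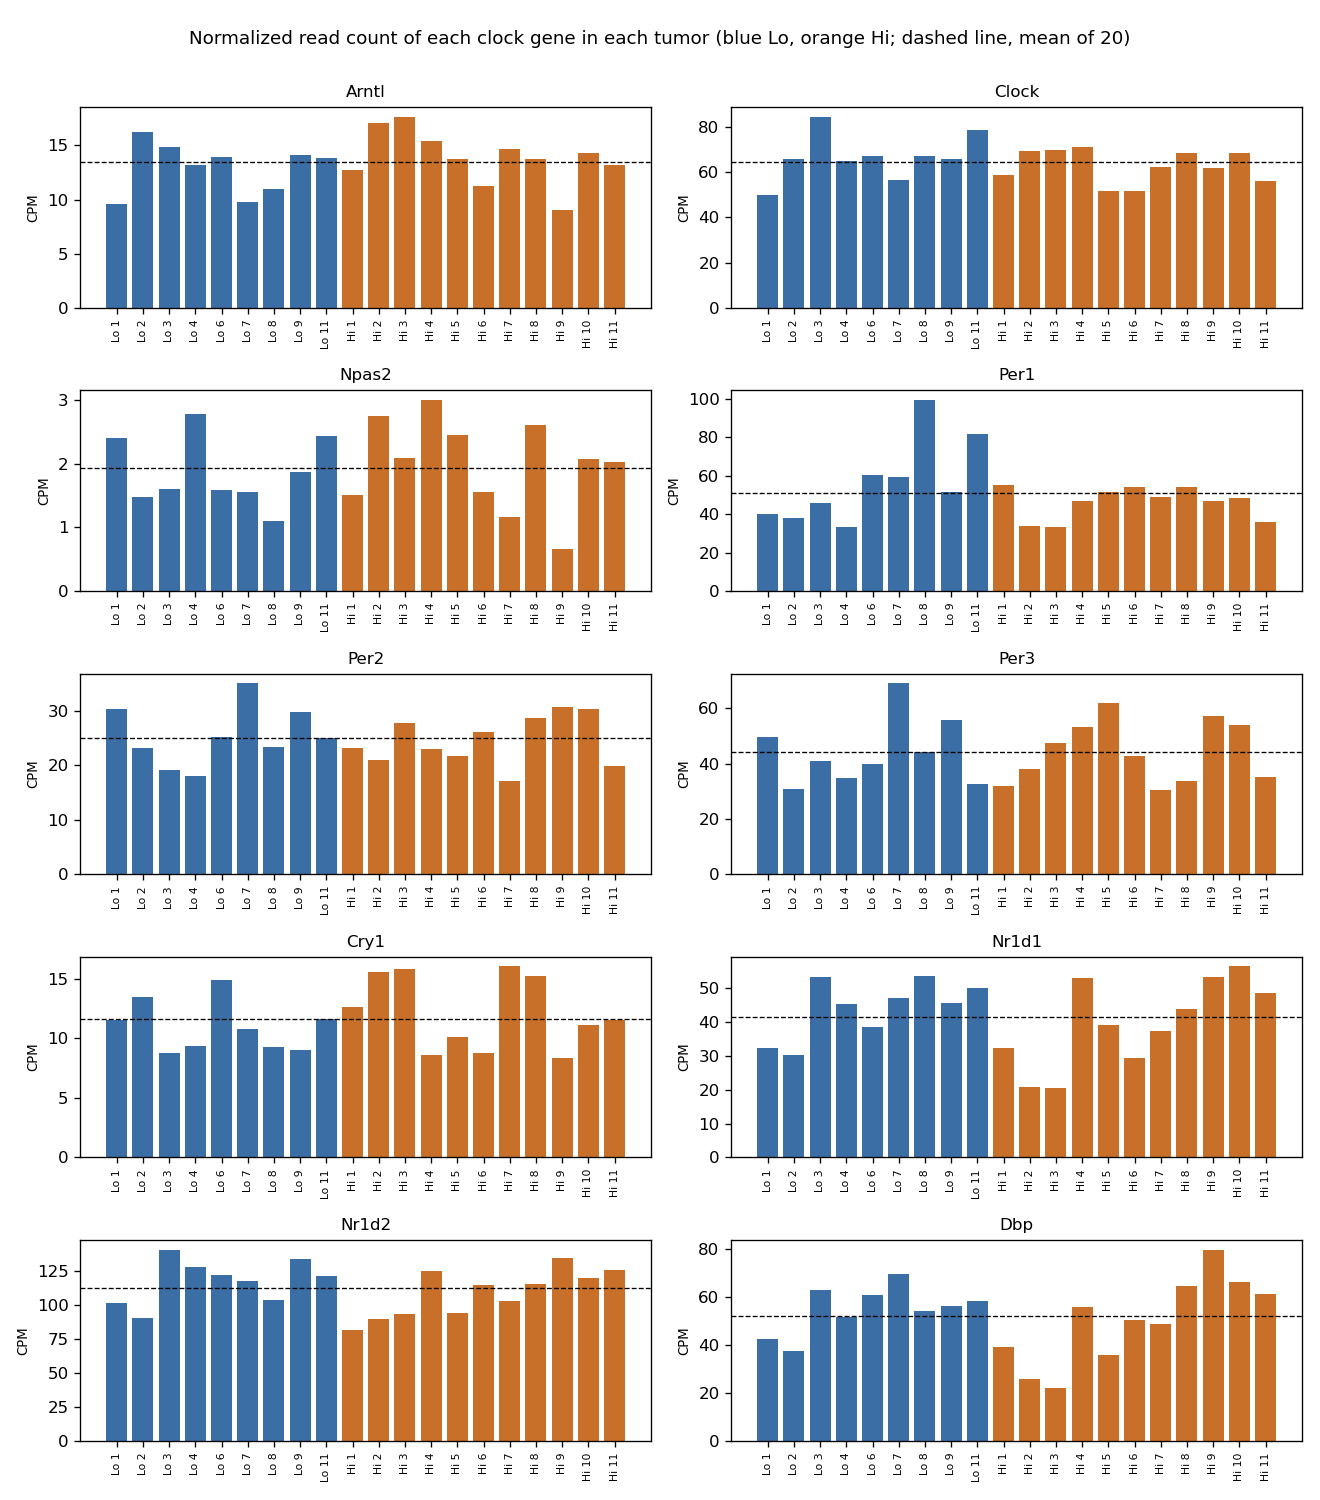
Normalized read count (CPM) of each of the 10 clock genes in each of the 20 tumors, 1 panel a gene, with Lo tumors in blue, Hi tumors in orange and the mean of 20 as a dashed line. Hi 2 and Hi 3 had the lowest Dbp (25.8 and 22.01 CPM) and the highest Arntl (17.1 and 17.6 CPM), and Hi 9 the reverse (79.6 and 9.06 CPM).

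Both ends of the Arntl and Dbp ranges fell on Hi 3 and Hi 9, while those of Clock, Per2, Per3 and Nr1d2 lay in other tumors. Hi 2 and Hi 3 held the highest Arntl, at 17.1 and 17.6 CPM. They also held the lowest Dbp, at 25.8 and 22.01 CPM, and the lowest Nr1d1, at 20.96 and 20.44 CPM. Their Cry1 was 15.6 and 15.8 CPM, near the highest, and their Per1 was 33.6 and 33.2 CPM, near the lowest. Hi 9 was opposite for most of these genes, with the lowest Arntl (9.06 CPM), Npas2 and Cry1 (8.35 CPM) and the highest Dbp (79.6 CPM). Its Nr1d1 was 53.5 CPM, near the highest, but its Per1 was 46.98 CPM, below the median of 48.9 CPM.

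For each gene the slope was fitted in edgeR's quasi-likelihood test as the change of its log2 level for each log2 unit of Arntl over the 20 tumors, with p-values adjusted (Benjamini-Hochberg) over all 18882 other genes. All 6 Per, Nr1d and Dbp genes had negative slopes and Clock, Npas2 and Cry1 had positive ones, but none of the 9 passed an adjusted p of 0.05, and neither did any other gene (0 of 18882, 0%). At an unadjusted p under 0.05 stood 4 of the 9, namely Clock, Cry1, Dbp and Per2, where 1496 of 18882 genes (7.92%) did. The median slope of all genes was -0.01, and 48.5% were positive. DESeq2, the other tool run, called 1 gene, Lphn3, which is no clock gene.

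Among the activators, Clock followed Arntl with a slope of 0.41 (SE 0.14) and an edgeR adjusted p of 0.538. Its correlation was r = 0.56 (permutation p = 0.00988, n = 20) with Spearman's rho = 0.65, and r was 0.50 without Lo 1 and Hi 9, the tumors farthest from the median of Arntl. Npas2 had a slope of 0.82 (SE 0.41, edgeR adjusted p = 0.637). Hi 9, the lowest tumor for both genes, weighed on this relation, since r was 0.47 over all tumors and 0.25 without it, and the slope 0.43. The slope was 1.30 without Lo 1. The r was 0.75 within Hi and -0.0037 within Lo, a difference in slope of 1.86 (SE 0.79, edgeR adjusted p = 0.733). Both genes whose proteins pair with Arntl thus had slopes of the same sign as each other, and neither passed the test.

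Of the genes that the pair activates, Dbp had the steepest slope on Arntl, -0.85 (SE 0.33, edgeR adjusted p = 0.551). Its r was -0.52 (permutation p = 0.0175), 314th from the lowest of 18882 genes, and its rho was -0.37 (permutation p = 0.114). Without Lo 1 and Hi 9 r was -0.57. It was -0.68 within Hi and -0.14 within Lo, a difference in slope of -1.22 (SE 0.65, edgeR adjusted p = 0.763). Scaled as log2(RPKM + 1), which divides by the total with the ribosomal locus in it, the correlation of Arntl with Dbp was -0.70, but that with Per2 was -0.29 and that with Per3 was -0.21. Per1 had a slope of -0.63 (SE 0.33), Per2 of -0.47 (SE 0.20) and Per3 of -0.50 (SE 0.26), with r of -0.36, -0.46 and -0.39. The Nr1d receptors, which repress Arntl, had slopes of -0.50 (SE 0.34) for Nr1d1 and -0.19 (SE 0.18) for Nr1d2, with r of -0.36 and -0.23. Single tumors moved the size of these slopes. That of Dbp was -0.59 without Hi 3 and -0.66 without Hi 2, and its r with Arntl was -0.25 without both. That of Per2 ran from -0.61 to -0.34 without each tumor in turn. The slope moved to -0.34 for Per1 without Lo 8 and to -0.31 for Per3 without Lo 7. It moved to -0.26 for Nr1d1 without Hi 3 (-0.29 without Hi 2), and the r of Nr1d1 with Arntl was 0.014 without both. For Nr1d2 the slope moved to -0.09 without Hi 9 (-0.28 without Lo 1, -0.11 without Hi 2 and -0.12 without Hi 3). Cry1, a Per partner in repression, went the other way with a slope of 0.61 (SE 0.24) and r = 0.47. The 6 negative signs held for Pearson and Spearman, on the RPKM scale, after the dosage of each gene's own chromosome was subtracted, and without each tumor in turn. The dosage of chromosome 7 varied little beside Arntl and Dbp (values below), so for that pair the subtraction was a weak check. Within the 9 Lo tumors Nr1d2 had r = 0.22, so that 1 of the 6 was positive there.

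**Figure D2:**
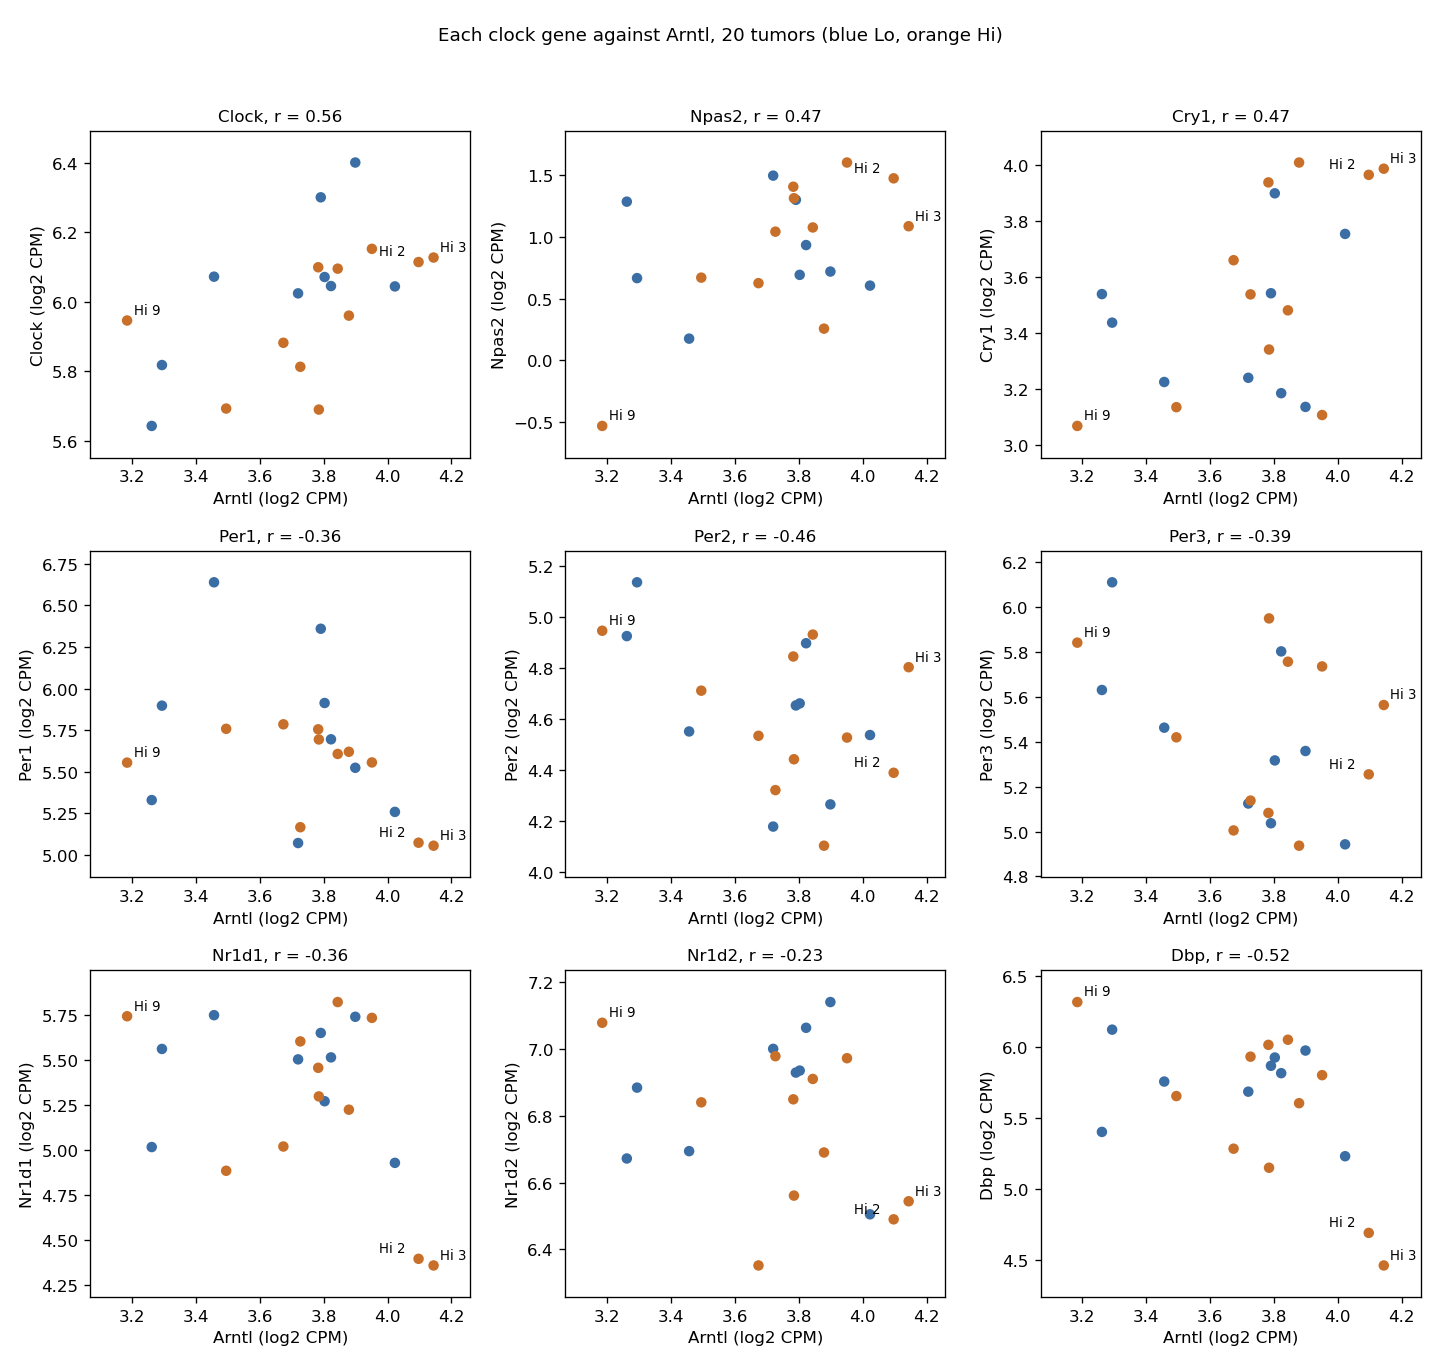
Log2 CPM of 9 clock genes (vertical axes) against log2 CPM of Arntl (horizontal axes), 1 point a tumor, Lo in blue and Hi in orange. The panels of Per1, Per2, Per3, Nr1d1, Nr1d2 and Dbp slope downward (r from -0.52 to -0.23), and those of Clock, Npas2 and Cry1 upward (0.47 to 0.56), with wide scatter in each.

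Dbp served as a second reference, from the output side of the loop. Of 18882 genes, 5 (0.0265%) changed with Dbp at an adjusted p under 0.05, and 1 of the 9 other clock genes, Nr1d1, was among them. At an unadjusted p under 0.05 stood 5 of the 9 (Nr1d1, Nr1d2, Arntl, Cry1 and Per1), where 7.62% of all genes did. The median slope of all genes was 0.01 with 53.1% positive.

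Nr1d1, the Rev-erb alpha receptor, rose with Dbp by 0.81 log2 units for each log2 unit (SE 0.10, edgeR adjusted p = 0.00171). The correlation was r = 0.88 with rho = 0.77, 2nd of 18882 genes, and the permutation p of r was 1e-05, the smallest that 100000 permutations can give. It was 0.77 within Lo and 0.90 within Hi. Hi 2 and Hi 3 were the lowest tumors for both genes, and the call needed at least 1 of them. Without both the slope was 0.69 (SE 0.16) and r was 0.73, but the edgeR adjusted p was 0.95 and no gene was called. Leaving out 1 tumor at a time kept the call in all 20 fits, with a slope of 0.76 to 0.87. Dbp lies on chromosome 7 and Nr1d1 on chromosome 11, so the 2 genes share no reads by position.

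Nr1d2, the Rev-erb beta receptor, had a slope of 0.38 on Dbp (SE 0.07) that stood at the threshold, with an edgeR adjusted p of 0.0541. The adjusted p was 0.000851 in DESeq2 and 0.049 with RLE factors, but 0.0894 with Lo or Hi as a term, 0.126 with the ribosomal share, 0.197 with the adipocyte sum, 0.0937 with the muscle sum, 0.165 without Hi 2, 0.0922 without Hi 3 and 0.787 without both. Its r of 0.80 was 4th of all genes and was 0.81 without Hi 2 and Hi 3. Tef, the relative of Dbp that binds the same D-box, rose with Dbp with a slope of 0.41 (SE 0.06, edgeR adjusted p = 0.00552) and r = 0.87. It ran from 87.1 CPM in Hi 2 through 124.3 to 157.0 CPM in Lo 11, and its r was 0.80 without Hi 2 and Hi 3, where its edgeR adjusted p was 0.851. Leaving out Hi 2 alone moved that adjusted p to 0.0546. Nr1d1 and Nr1d2 also correlated with each other (r = 0.73, permutation p = 0.0002).

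**Figure D3:**
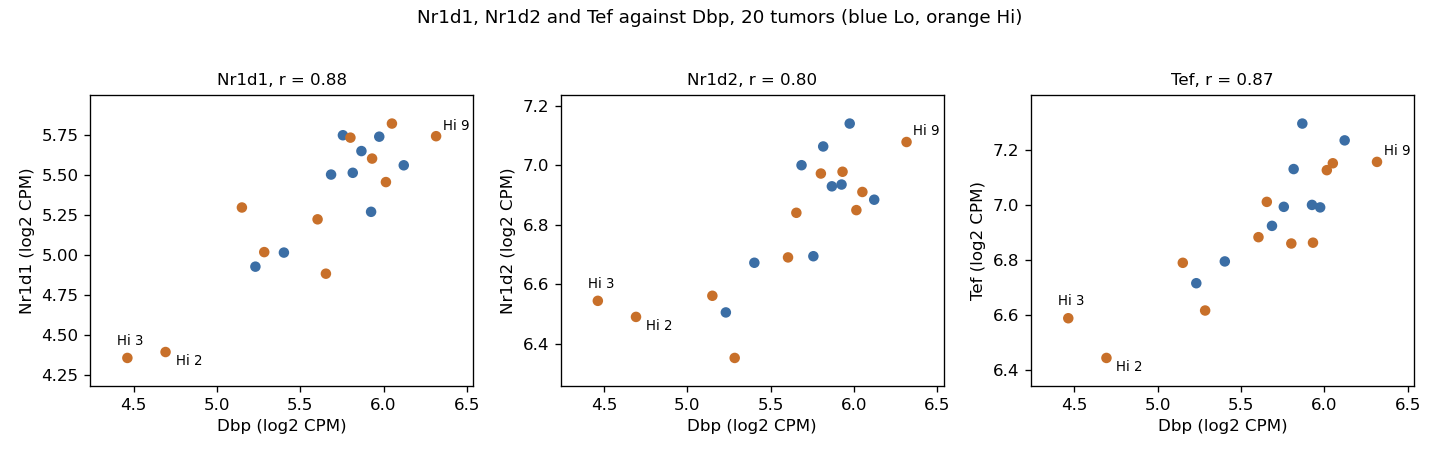
Log2 CPM of Nr1d1, Nr1d2 and Tef (vertical axes) against log2 CPM of Dbp (horizontal axes), 1 point a tumor, Lo in blue and Hi in orange. All 3 genes rise with Dbp (r = 0.88, 0.80 and 0.87), and Hi 2 and Hi 3 lie at the low end of each panel.

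The other genes called with Dbp were Sphk2, Krt10 and Gm15190, named after their values were seen. Sphk2, which encodes a sphingosine kinase, had a slope of 0.36 (SE 0.05, edgeR adjusted p = 0.00552) and r = 0.89. Without Hi 3 its edgeR adjusted p was 0.158. It overlaps Dbp on mm10 over 689 bases (chromosome 7, 45709467 to 45710155) on the opposite strand. Nr1d1 likewise overlaps Thra, a thyroid hormone receptor gene, over 1075 bases (chromosome 11, 98767932 to 98769006) on the opposite strand, with r = 0.74 between them. Whether counting used strand is not given in the sources used here, so reads in the shared stretches cannot be assigned with certainty, and their part in these correlations was not tested. Krt10, an epidermal keratin, fell with Dbp (slope -2.11, SE 0.36, edgeR adjusted p = 0.0355) but its slope was 0.46 without Hi 3, so that 1 tumor set its direction. Gm15190 also fell (slope -1.26, SE 0.22, edgeR adjusted p = 0.0449) and its slope was -0.32 without Hi 3.

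The remaining clock genes followed Dbp less closely and none passed the test. Arntl had a slope of -0.29 (SE 0.11) and Cry1 one of -0.32 (SE 0.13), and their r of -0.52 and -0.49 moved to -0.25 and -0.21 without Hi 2 and Hi 3. Per1 had a slope of 0.41 (SE 0.18), Per2 of 0.15 (SE 0.12), Per3 of 0.14 (SE 0.16), Clock of 0.04 (SE 0.09) and Npas2 of -0.30 (SE 0.24).

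Taking all 45 pairs of the 10 genes, a grouping made after the values were seen put Arntl, Clock, Npas2 and Cry1 on one side and the Per, Nr1d and Dbp genes on the other. All 6 pairs within the first set and all 15 within the second had positive r, and 20 of the 24 pairs between them were negative. The 4 exceptions were all Clock, with Per1, Nr1d1, Nr1d2 and Dbp (r = 0.11, 0.22, 0.30 and 0.09). Most of these correlations were weak, with a median r of 0.32 and 0.24 within the sets and -0.26 between them. Cry1 was opposed to Nr1d1 (r = -0.60, permutation p = 0.00504), to Nr1d2 (r = -0.56, permutation p = 0.0107) and to Per3 (r = -0.50), and adjusted over all genes none of these permutation p was under 0.05 with either gene as reference (0.122 to 0.701). Its r with Nr1d1 was -0.54 without Hi 3 and Hi 7, -0.41 without Hi 2 and Hi 3, -0.70 within Lo and -0.55 within Hi.

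**Figure D4:**
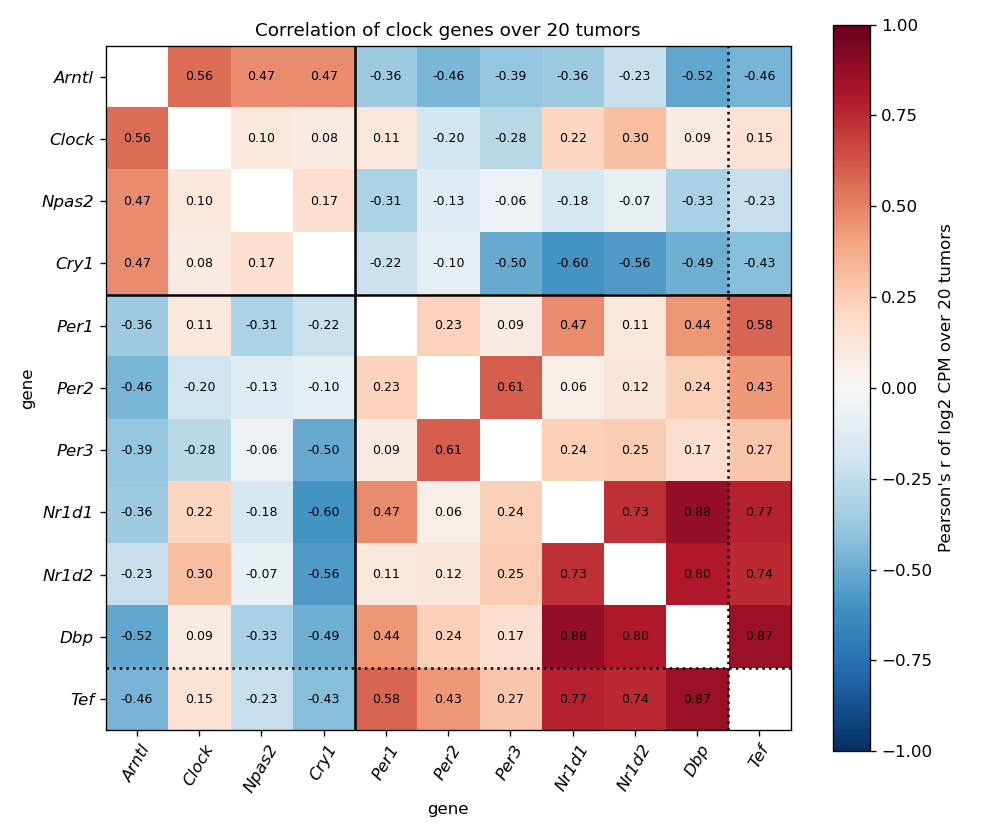
Pearson's r of log2 CPM over the 20 tumors for each pair of the 10 clock genes and Tef, red for positive and blue for negative, with a solid line between the sets described in the text and a dotted line before Tef. The block of Nr1d1, Nr1d2, Dbp and Tef is the strongest (0.73 to 0.88), and the rows of Arntl and Cry1 are blue across the Per, Nr1d and Dbp columns.

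Per2 and Per3 had r = 0.61 (permutation p = 0.00477). The permutation p adjusted over all genes was 0.0481 with Per3 as reference and 0.322 with Per2 as reference, so that the call held in 1 direction of the fit. The r was 0.63 without Lo 7 and Hi 5 and 0.43 without Lo 7 and Hi 7, the tumors with the most and the least Per2. Per3 stood apart from the other 9 in the number of genes it correlated with. At an adjusted permutation p under 0.05 there were 1931 of 18882 (10.2%), 1083 positive and 848 negative, against 28 for Per1, 4 for Nr1d1 and 0 for the other 7. For Dbp the genes at the smallest permutation p had an adjusted p of 0.0629, so its 0 was bound by the number of permutations. Of the other 9 clock genes 1, Per2, was among the genes called with Per3, a share near that of all genes. Per3 lies on chromosome 4. The paper reported that all tumors it karyotyped had lost a copy of this chromosome, and that its expressed alleles were skewed toward FVB. Dosage of a chromosome was the median log2 level of its genes, each centered on its median over the 20 tumors, against that of all autosomes. It thus compares tumors with each other and gives no copy number. For chromosome 4 it ran from -0.21 in Lo 2, where Per3 was 30.7 CPM, to 0.37 in Hi 5, where Per3 was 61.8 CPM. Over the 20 tumors Per3 correlated with that dosage at r = 0.52 (permutation p = 0.0178), with an adjusted p of 0.0754 over the 10 genes and their own chromosomes. Chromosome 4 held 6.17% of the genes tested and 8.91% of the genes called with Per3. With the dosage of each gene's own chromosome subtracted, Per3 had r = -0.41 with Arntl.

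Dosage of chromosome 7, which carries both Arntl and Dbp, had r = -0.50 with Arntl (permutation p = 0.0226) and r = 0.56 with Dbp (permutation p = 0.013), with adjusted p of 0.0754 for each over the 10 genes. By rank the relations were weaker, with rho of -0.36 for Arntl (permutation p = 0.123) and 0.30 for Dbp (permutation p = 0.204). Chromosome 7 dosage was lowest in Hi 3, at -0.09, and next lowest in Lo 4, at -0.05. Without these tumors, the farthest from the median dosage, r with Dbp was 0.32. With the dosage subtracted the correlation of Arntl with Dbp was -0.53. That dosage had an SD of 0.03 over the tumors, against 0.27 for log2 Arntl and 0.47 for log2 Dbp. Subtracting it could therefore hardly move r, and the part of dosage in this correlation was not tested. Npas2 lies on chromosome 1, where Lo 8 and Hi 7 were at -0.30 and -0.23, and had r = 0.44 with its dosage (adjusted permutation p = 0.125). Per1, on chromosome 11, had r = 0.43 with its dosage (adjusted permutation p = 0.125) and rho = 0.64 (unadjusted permutation p = 0.00288). Neither the total count, the number of genes detected nor the share of the ribosomal RNA locus correlated with Arntl or Dbp at an adjusted permutation p under 0.05. The ribosomal share had r = 0.27 with Arntl over the 20 tumors, 0.79 within Lo and -0.12 within Hi.

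Other genes of the clock were taken as lists. Of 17 loop partners (Cry2, the Ror receptors, Bhlhe40 and Bhlhe41, Nfil3, Tef, Hlf, Ciart, Arntl2, and the kinases and ubiquitin ligase parts that act on Per and Cry), 16 were tested, all but Rorb. On Dbp, 13 had a positive slope and 3 a negative one, with a median of 0.12, and Tef passed the test (0.0265% of all genes did). Ciart, a repressor of the Arntl pair, had a slope of 0.56 (SE 0.24, edgeR adjusted p = 0.626) and r = 0.58 with Nr1d1. Rora, an activator of Arntl, had a slope of 0.30 (SE 0.09, edgeR adjusted p = 0.454) and Nfil3, which opposes Dbp at the D-box, one of 0.58 (SE 0.29). On Arntl 0 of the 16 passed. Cry2, the second cryptochrome, had a slope of -0.57 (SE 0.21) on Arntl against 0.61 for Cry1, and Arntl2, the paralog of Arntl, had a slope of -0.89 (SE 0.27), both with an edgeR adjusted p of 0.538. Of 12 output genes, 0 passed on either reference, with median slopes of 0.08 on Arntl and -0.003 on Dbp. Lonrf3 had the steepest slope on Arntl, 0.66 (SE 0.19, edgeR adjusted p = 0.538). Tspan4 came nearest with 0.48 on Dbp (SE 0.09, edgeR adjusted p = 0.0722), and Wee1 and Nampt, a cell cycle kinase and an enzyme of NAD synthesis, had slopes of -0.04 and 0.01.

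**Figure D5:**
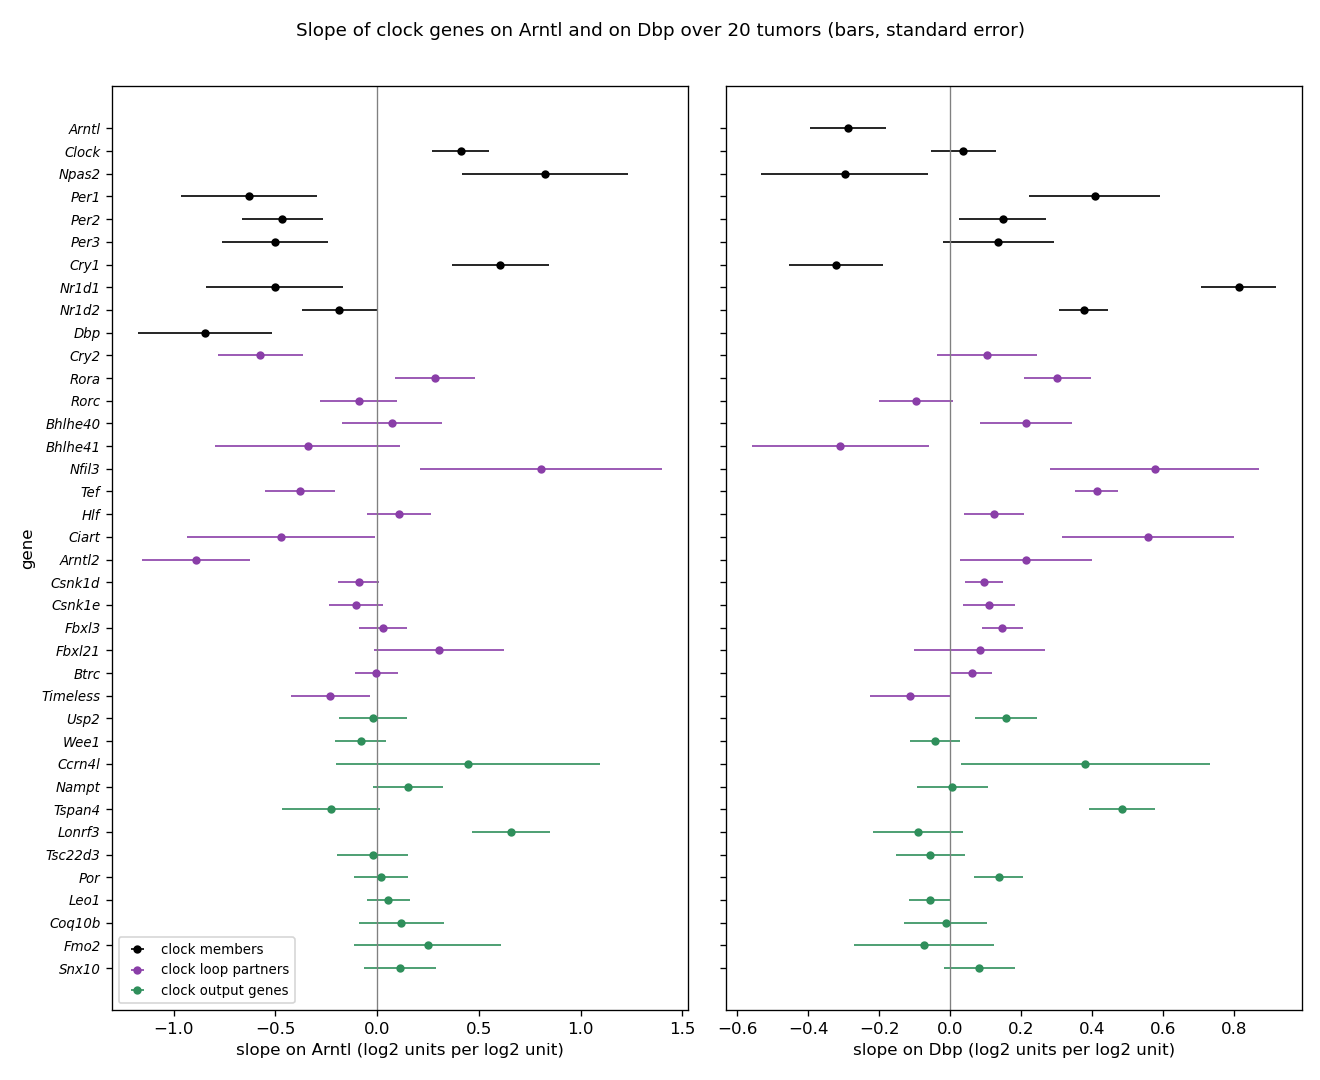
Slope of each clock gene, loop partner and output gene on Arntl (left) and on Dbp (right), in log2 units per log2 unit over 20 tumors, with bars of 1 SE. On Dbp, Nr1d1 (0.81), Tef (0.41), Nr1d2 (0.38) and Tspan4 (0.48) lie several SE above 0, and on Arntl the output gene Lonrf3 (0.66) lies highest above 0 in units of its SE among the output genes.

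Marker lists of other cells were read beside both references, and no marker passed the test on either. All 8 adipocyte genes (Adipoq, Plin1, Plin4, Fabp4, Lep, Cidec, Retn and Cfd) had negative slopes on Arntl (median -1.93) and positive slopes on Dbp (median 1.26),. Their summed level had r = -0.31 with Arntl (permutation p = 0.179, adjusted p = 0.838 over 14 lists), 0.28 within Lo and -0.78 within Hi, and r = 0.40 with Dbp (permutation p = 0.0819, adjusted p = 0.498). It was 80.0 CPM in Hi 9 and 13.4 and 15.8 CPM in Hi 2 and Hi 3, ran from 10.02 to 74.8 CPM in Lo and from 8.99 to 80.0 CPM in Hi, and 3 of the genes were at 0 in at least 1 tumor. With that sum as a term, the slope of Nr1d1 on Dbp was 0.86 (edgeR adjusted p = 0.00204), that of Tef was 0.42 (edgeR adjusted p = 0.0241) and that of Dbp on Arntl was -0.71. All 6 endothelial genes had negative slopes on Arntl (median -0.48) and positive slopes on Dbp (median 0.21), and their summed level ran from 51.4 to 127.2 CPM. All 6 muscle genes had negative slopes on Arntl (median -4.07), with a summed level of 141 CPM in Hi 9, and 2 positive and 4 negative slopes on Dbp. With the muscle sum as a term the slope of Nr1d1 on Dbp was 0.79 (edgeR adjusted p = 0.000964). All 6 macrophage genes had negative slopes on Arntl (median -0.27), with 2 positive and 4 negative slopes on Dbp, and their summed level of 208.9 to 353.0 CPM had r = -0.43 with Arntl (permutation p = 0.057, adjusted p = 0.799) and rho = -0.61 (permutation p = 0.00534, adjusted p = 0.0748). Negative slopes on Arntl numbered 5 of 6 for leukocytes, 4 of 5 for T cells, 3 of 7 for fibroblasts and 6 of 7 for epithelial cells. On Dbp, 2 of 6, 5 of 5, 6 of 7 and 2 of 7 were negative. The parts of endothelial cells and macrophages in the clock relations were not tested.

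Per1 also answers signals other than the clock, among them glucocorticoids and the stimuli that induce immediate-early genes. It correlated with the summed level of 10 glucocorticoid-responsive genes at r = 0.65 (permutation p = 0.00271, adjusted p = 0.019 over 14 lists) but rho was 0.34. Lo 8 was highest in both, at 99.6 CPM and 1103 CPM. The 2 tumors whose glucocorticoid sum lay most distant from its median included Lo 8. With that pair left out r was 0.02, so the relation rested on the pair. The r was 0.73 within Lo and 0.20 within Hi. With the summed level of 12 immediate-early genes Per1 had r = 0.30 (permutation p = 0.197, adjusted p = 0.572). All 12 immediate-early genes had negative slopes on Arntl (median -0.33) and none passed. Of the 10 temperature-responsive genes, which follow body temperature over the day, 5 had positive and 5 negative slopes on Arntl and none passed on either reference.

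Ranked by r over the 20 tumors, the 8 genes most like Arntl were (of 13823 genes whose log2 CPM averaged 1 or more) Prepl, Lphn3, M6pr-ps, Usp38, Gm22123, Gm16541, Atp7a and Cbx5, with r of 0.72 to 0.77. The 8 least like it were Plekhj1, Rasgrp4, 1700113A16Rik, Hdac7, Plekho1, Unc45a, Crlf2 and Adamtsl4, with r of -0.76 to -0.69. The adjusted permutation p was 0.506 for each, and Clock, at r = 0.56, ranked 162nd of all 18882 genes.

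No clock gene passed the test between the Lo and Hi tumors. In edgeR's quasi-likelihood test 0 of the 10 and 0 of 18883 genes (0%) passed an adjusted p of 0.05, with 0 of the 10 and 1045 of all genes (5.53%) at an unadjusted p under 0.05 and 1 gene called by DESeq2. The largest difference was that of Per1, which was 56.8 ± 21.7 CPM in Lo (SD, n = 9) and 46.3 ± 8.25 CPM in Hi (SD, n = 11), a log2 difference of -0.29 (Hi minus Lo, SE 0.17, edgeR adjusted p = 0.984) that was -0.15 without Lo 8. Arntl was 12.9 ± 2.32 CPM in Lo and 13.9 ± 2.44 CPM in Hi, and Dbp was 54.8 ± 9.999 CPM in Lo and 49.8 ± 17.9 CPM in Hi. The ranges of Lo and Hi overlapped for all 10 genes.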

How the data were processed

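RNA from 20 tumors was sequenced in 1 experiment (paired reads, trimmed to 100 bases), processed by the authors with MapRseq and aligned to mm10 with TopHat2 (TopHat2 2.0.12 and featureCounts 1.4.4 per the submitters' processing notes). The deposited values are raw read counts per gene with a listed length. The authors' strand setting is not given in the sources used here. Counts were filtered (filterByExpr), scaled by TMM and fitted with edgeR 4.0.16 (glmQLFit, glmQLFTest) on Arntl, on Dbp or on Lo and Hi, with Benjamini-Hochberg adjustment over all genes and a threshold of 0.05. Log2 CPM used a prior count of 2. Correlations had two-sided p from 100000 permutations. DESeq2 1.42.0 was an alternative. On simulated counts with 200 well-counted genes given a slope of 2 in size on Arntl, up or down, 200 of 200 were recovered and 10 other genes were called. The steepest clock gene, Dbp, had a slope of -0.85 on Arntl, and recovery at slopes of that size or smaller was not tested. The rule named the 10 clock genes, list genes past the threshold or defining their list, and the 8 genes most and least like Arntl. Sphk2, Thra, Krt10, Gm15190 and list genes below the threshold were named after their values were seen. The clock genes and all lists were chosen with earlier results of these data known. The numbers in the sample names did not pair Lo with Hi tumors. Promoters came from RefSeq. Each tumor came from a different mouse.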

Additional observations from a re-analysis of the deposited data

How the results depend on the processing

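No slope of a clock gene on Arntl changed sign or passed the threshold under any alternative run. The number of genes called on Arntl was 0 in all but 3 alternatives, 1 with DESeq2, 63 without a filter on low counts and 1 without the 2 tumors farthest from the median, and 0 to 0 without each tumor in turn. On Dbp the 5 genes called became 30 with DESeq2, 8 with RLE factors, 74 without the filter, 3 with the share of the ribosomal RNA locus as a term, 3 with the adipocyte sum, 3 with the muscle sum (both terms chosen after seeing the data) and 0 without Hi 2 and Hi 3, and 2 to 8 without each tumor in turn. Without the filter more genes are tested. The cause of the other moves was not tested. Krt10 had a slope on Dbp of 0.58 without Hi 2 and Hi 3 and of -2.33 to 0.46 without each tumor in turn, and Clock one of -0.0175 with the ribosomal share as a term. All 6 negative correlations with Arntl stayed negative in each alternative that took Arntl as reference. Without Hi 2 and Hi 3, the tumors farthest from the median of Nr1d1, that of Nr1d1 with Arntl was 0.014. Within the Lo tumors that of Nr1d2 was 0.22.

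Between Lo and Hi, 1 gene was called with DESeq2 and 1 without the filter. With the number in the sample name as a replicate block over 18 tumors 0 were called, the log2 difference of Npas2 (Hi minus Lo) was -0.0237 and that of Per3 was -0.0859. Same-numbered tumors deviated together at r = -0.42 to 0.21, above 0.1 in 3 of 9 pairs, so the numbers were not taken as pairing. Without each tumor in turn 0 genes were called, Per2 ranged from -0.107 to 0.0144 and Per3 from -0.0578 to 0.106. For permutation p the smallest value allowed an adjusted p of no less than 0.0629 for the 3 genes tied at it on Dbp.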
